A study of Mus musculus with 15 samples.

Results

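A set of 9 genes of the acute-phase response and of complement was followed in cultured mouse embryonic fibroblasts: Lcn2, Saa1, Saa2, Saa3, C3, Clu, Cfb, Hp and Orm1. The genes were chosen by their FPKM in these data, since most of them were higher in culture-adapted than in primary cells, WT or CIZ1 null. Their change on adaptation is therefore given as a description, without a test. A transcription unit was taken where 1 of its gene symbols was 1 of the 9 names, which gave 12 of the 65522 units in the data. Of the 12 units, 8 lie on the strand of the gene and 4 on the other strand. Saa1 and Saa3 share a single unit, and Cfb shares a unit with C2 and Gm20547, so that these genes could not be read apart.

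Whole transcriptome RNA-seq was performed on 15 samples of C57BL/6 female embryonic fibroblasts, each grown from an embryo of day 13 to 14, and deposited as FPKM, a level scaled to transcript length and to library size. The samples included 3 primary WT populations (embryos E14.4, E13.1 and E13.8), 3 primary populations null for CIZ1 (embryos E14.2, E13.15 and E13.17), and 1 culture-adapted line derived from each by prolonged passage. The null allele is a gene trap made in embryonic stem cells, carried by all null cells. Primary null E13.17 also carried a transactivator and a responder transgene for doxycycline-inducible GFP-CIZ1 and was untreated, as was a further inducible sample, S13, and 2 such samples, S14 and S15, received doxycycline at 5 to 10 µg per ml. The study's list of cells gives the transgenes to the adapted line of E13.17 as well, whereas its label names the null genotype only. Embryos are separate animals, but each adapted line is a single derivative of its population. By the study's methods the untreated and treated inducible cells came from the same 2 embryos, E13.17 being one, but the labels do not tie S13, S14 and S15 to an embryo. If each embryo gave 1 untreated sample, S13 came from the other embryo, whose cells the study lists at an earlier passage.

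The targeted gene followed its labels, since Ciz1 lay between 18.7 and 25.0 FPKM in WT samples, at most 0.724 FPKM in untreated null samples, and between 191 and 296 FPKM after doxycycline. All 8 fibroblast markers had a mean of at least 1 FPKM in every group, with a summed level of 7497 to 8845 FPKM in untreated primary samples and 2341 to 4781 FPKM in adapted lines. Single adapted lines lacked a marker. Thy1 was listed at 0 in adapted WT E13.8 and stood at 0.215 FPKM in adapted null E13.17, against 643 to 979 FPKM in untreated primary samples. Dcn stood at 0.984 FPKM in adapted WT E13.1, against 24.1 to 222 FPKM in untreated primary samples. It was higher than these in adapted WT E14.4 (905 FPKM) and adapted null E13.15 and E14.2 (800 and 993 FPKM). Pdgfra stood at 63.2 FPKM in adapted null E13.15 and at 16.3 FPKM in its primary population. The markers thus did not all fall, and the sum is set mainly by Col1a1, Col1a2 and Vim. Since several members are best known as liver products, hepatocyte markers bear on them. Their summed level was at most 6.61 FPKM in any sample, Ttr was listed at 0 in all 15 samples, and Alb stood at 3.79 and 4.71 FPKM in adapted null E13.15 and E14.2 and at most at 0.0987 FPKM elsewhere. The 7 macrophage markers summed to 8.98 to 101 FPKM in untreated primary samples and to 2.15 to 15.1 FPKM in adapted lines, and the part of other cell types in the results was not tested. In bulk RNA, fewer cells of a type cannot be told apart from less RNA per cell.

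The acute-phase response is the change in secreted plasma proteins that follows infection or injury. It is best known in liver, where interleukin-6 acting through STAT3 and C/EBP factors, and interleukin-1 acting through NF-kappaB, induce serum amyloid A, haptoglobin, orosomucoid and complement factors, and fibroblasts can make several of the same products. Lipocalin 2 binds bacterial siderophores and so withholds iron, haptoglobin binds free haemoglobin, and serum amyloid A proteins are carried on high-density lipoprotein. C3 is the central component of complement, factor B joins it in the alternative pathway convertase, and clusterin is a chaperone that also restrains the terminal complex.

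RefSeq promoters (build GRCm38.p6, from 250 bases before the start site to 50 after it) were at hand for 5 of the 9 genes. The unit of Lcn2, the joint unit of Saa1 and Saa3, and the unit of C3 reached the highest levels among those 5 genes. The own unit of Saa2 stayed close to 0 in the same gene cluster as the joint unit. Saa1 meets the same rule as Saa3, with which it shares the unit, but is not shown. The promoters of Lcn2, Saa3, Saa2 and C3 are shown. They were searched on both strands for GGGNNNNNCC (a kappaB-type motif), TTNNGNAA (C/EBP-type) and TTCNNNGAA (STAT-type), and capitals mark the bases of any match. Lcn2 (chr2:32387690-32387989, minus strand), Saa3 (chr7:46715627-46715926, minus strand), Saa2 (chr7:46751583-46751882, plus strand) and C3 (chr17:57228087-57228386, minus strand) read 5′ to 3′ along the gene:
Lcn2: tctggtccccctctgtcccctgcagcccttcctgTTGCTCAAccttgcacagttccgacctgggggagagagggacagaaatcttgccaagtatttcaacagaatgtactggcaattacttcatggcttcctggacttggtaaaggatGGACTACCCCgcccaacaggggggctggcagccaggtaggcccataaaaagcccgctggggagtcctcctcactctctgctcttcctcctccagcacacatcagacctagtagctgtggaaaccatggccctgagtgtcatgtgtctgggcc
Saa3: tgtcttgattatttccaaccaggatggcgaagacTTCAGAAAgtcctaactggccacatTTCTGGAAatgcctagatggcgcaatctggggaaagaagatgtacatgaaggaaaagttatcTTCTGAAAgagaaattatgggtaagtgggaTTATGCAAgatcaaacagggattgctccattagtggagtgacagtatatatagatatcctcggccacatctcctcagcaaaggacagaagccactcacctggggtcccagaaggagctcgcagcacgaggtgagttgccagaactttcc
Saa2: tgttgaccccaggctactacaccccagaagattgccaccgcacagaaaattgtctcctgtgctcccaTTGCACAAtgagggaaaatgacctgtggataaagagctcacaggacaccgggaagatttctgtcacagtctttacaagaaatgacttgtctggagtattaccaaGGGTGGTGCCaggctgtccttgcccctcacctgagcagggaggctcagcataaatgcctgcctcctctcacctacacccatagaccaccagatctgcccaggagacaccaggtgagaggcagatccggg
C3: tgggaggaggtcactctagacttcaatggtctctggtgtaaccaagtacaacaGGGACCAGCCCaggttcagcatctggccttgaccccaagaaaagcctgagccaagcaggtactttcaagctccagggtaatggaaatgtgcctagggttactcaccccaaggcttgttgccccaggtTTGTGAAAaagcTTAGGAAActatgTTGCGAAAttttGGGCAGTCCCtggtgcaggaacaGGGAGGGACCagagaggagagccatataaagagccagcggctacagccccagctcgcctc

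The Lcn2 window held 1 kappaB-type match, between bases -102 and -93 from the start site, and 1 C/EBP-type match. The Saa3 window held 4 C/EBP-type matches and no kappaB-type match. In C3, 3 places matched the kappaB-type motif and 3 the C/EBP-type motif, all of the latter between bases -70 and -38. Saa1 and Saa2 each held 1 kappaB-type match, with 2 and 1 C/EBP-type matches, and no window of the 5 held a STAT-type match. Such matches are common: over 27025 RefSeq promoters, 50.4% held the kappaB-type motif, 40.7% the C/EBP-type and 8.47% the STAT-type, so the letters are a description of these windows and not sites of binding. The Saa1 and Saa2 windows were identical at 95.7% of 300 bases on alignment, while Saa2 and Saa3 were identical at 54.3%.

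Lcn2 was close to the lower limit of the data in every primary population and among the abundant transcripts of most adapted lines. In primary WT cells the unit on its own strand (chr2:32384633-32388252) stood at 0.117 FPKM in E14.4, 0.156 in E13.1 and 0.103 in E13.8. The adapted lines of the same embryos stood at 454, 438 and 346 FPKM. All 3 adapted WT lines were therefore close to one another and far above their parents, with a change of 8.51 on the log2(FPKM + 1) scale (SE 0.171). In primary CIZ1 null cells it stood at 0.178 FPKM in E14.2, 0.333 in E13.15 and 0.653 in E13.17. Their adapted lines stood at 28.2, 156 and 414 FPKM, a change of 6.50 (SE 0.896) on the same scale. The null lines were thus more scattered than the WT lines, and E14.2 was the lowest of the 6. Among all units, Lcn2 ranked between 158 and 231 from the top in adapted WT lines, and at 540, 173 and 3366 in adapted null E13.15, E13.17 and E14.2. The untreated inducible population S13 stood at 0.505 FPKM, and the treated S14 and S15 at 0 and 0.140 FPKM, all within or below the range of the other primary cells.

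Serum amyloid A gave the highest single value of the set. The unit that joins Saa1 and Saa3 lies in a cluster at chr7:46711997-46754314. In primary WT cells it stood at 0.467 FPKM in E14.4, 1.65 in E13.1 and 2.99 in E13.8. In the adapted lines of these embryos it stood at 1910, 3.84 and 1589 FPKM. Adaptation of E13.1 therefore left this unit within 2.33 times of its primary level, in the line with the second highest Lcn2. The mean change in WT cells was 6.62 on the log2(FPKM + 1) scale (SE 2.24), and 9.45 without adapted E13.1. In primary null cells the unit stood at 5.06 FPKM in E14.2, 18.3 in E13.15 and 6.91 in E13.17. In their adapted lines it stood at 3982, 4831 and 4847 FPKM, a change of 8.86 (SE 0.428). In adapted null E13.17 no unit of the whole transcriptome was higher, and the unit ranked 2 in E13.15 and 6 in E14.2. It held 0.682 to 0.896% of all FPKM in adapted null lines, and 0.288 and 0.341% in adapted WT E13.8 and E14.4. S13 stood at 2.46 FPKM, and the treated S14 and S15 at 0 and 3.83 FPKM.

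Saa2 showed none of this. Its own unit was listed at 0 in all 9 primary samples, the treated ones included, and its highest value was 0.706 FPKM, in adapted null E13.15. The Saa1 and Saa2 transcripts share exact stretches of up to 76 bases, and 9.1% of all windows of 50 bases in Saa1 are also present in Saa2. By contrast, the longest stretch that Saa3 shares exactly with Saa1 is 12 bases. How fragments of the joint unit divide between Saa1 and Saa3 was not tested, since the values are given per unit.

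C3 was far higher in all 6 adapted lines than in their parents. In primary WT cells it stood at 0.764 FPKM in E14.4, 0.583 in E13.1 and 1.35 in E13.8 (unit at chr17:57203970-57228136), against 22.9, 53.2 and 129 FPKM in the adapted lines. In null cells it stood at 0.745 FPKM in E14.2, 2.80 in E13.15 and 1.20 in E13.17, against 57.1, 160 and 162 FPKM. Every adapted line was above every primary population. The changes were 4.88 (SE 0.586) in WT and 5.56 (SE 0.489) in null cells on the log2(FPKM + 1) scale, and adapted WT E14.4 was the lowest line. S13 stood at 0.621 FPKM, and the treated S14 and S15 at 0.225 and 2.10 FPKM.

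The unit of the other alternative pathway gene among the members, Cfb, did not share this pattern. It joins C2, Cfb and Gm20547 (chr17:34856374-34898265) and held 1.31 to 3.33 FPKM in the primary populations of the 6 embryos. In adapted lines it ranged from 0.663 FPKM in WT E13.1 to 6.56 FPKM in null E13.15. It was higher in the adapted line for 3 embryos and lower for 3, but in WT E14.4 the values were all but equal, at 1.406 and 1.409 FPKM. The mean changes were 0.17 (SE 0.551) in WT and 0.03 (SE 0.578) in null cells on the log2(FPKM + 1) scale, so a higher level on adaptation was not seen for the unit that holds Cfb. The sign in WT cells turned without adapted E13.8, to -0.46.

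**Figure D1:**
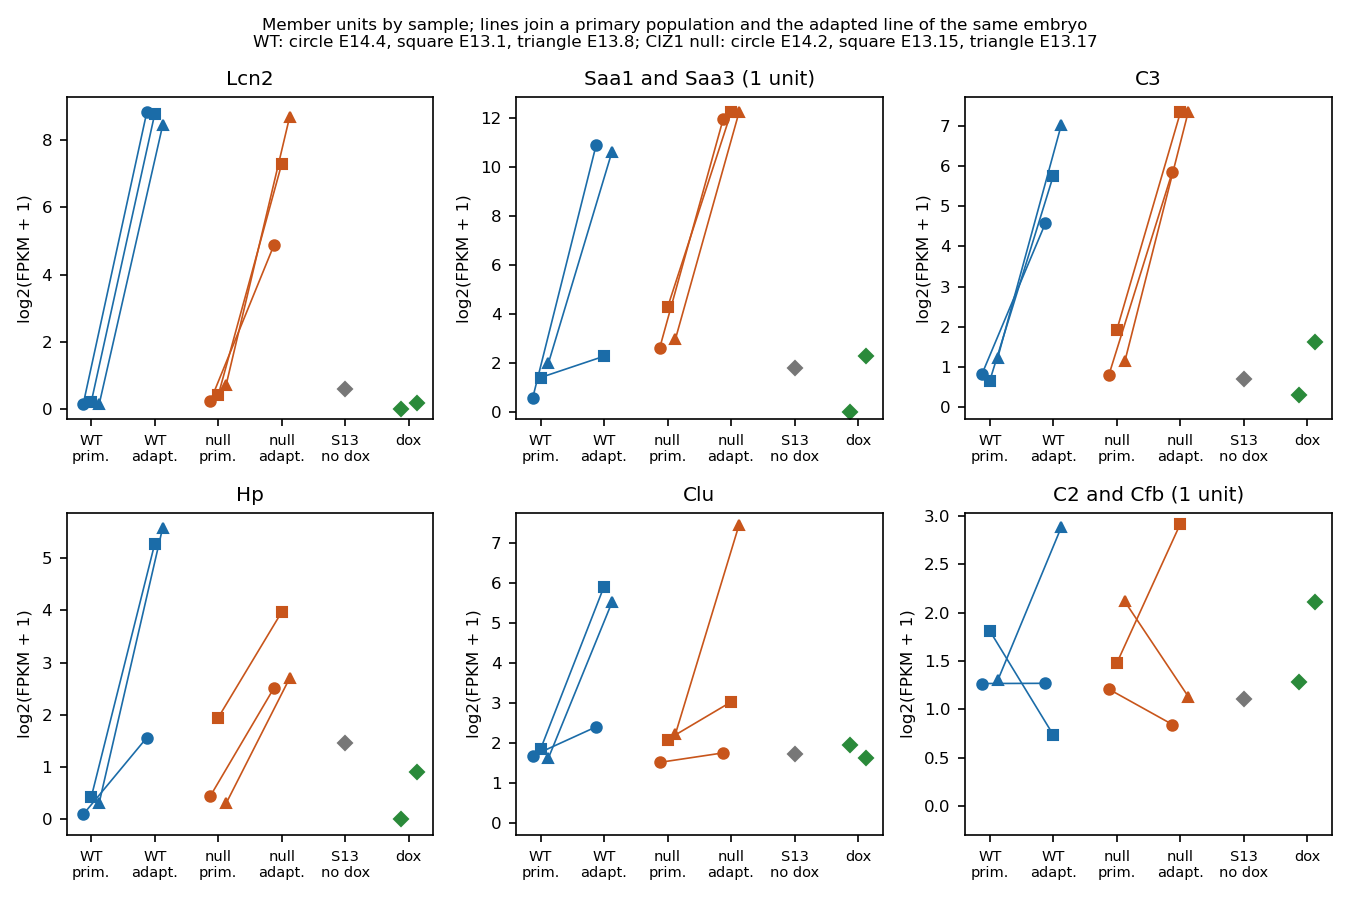
Level of 6 member units on the strand of the gene, as log2(FPKM + 1), in each of the 15 samples. Each point is 1 sample, lines join a primary population to the adapted line of the same embryo (null E13.17 is the untreated inducible one), and single diamonds are the untreated S13 and the 2 doxycycline-treated samples. Lcn2 and C3 are higher at the adapted end of all 6 lines, Saa1 and Saa3 stay low in adapted WT E13.1, and C2 and Cfb go both ways.

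Haptoglobin was higher in the adapted line of all 6 embryos but at very different levels. In primary WT cells Hp stood at 0.0687 FPKM in E14.4, 0.340 in E13.1 and 0.243 in E13.8 (unit at chr8:109575127-109579172), against 1.96, 37.7 and 46.9 FPKM in the adapted lines. In null cells it stood at 0.362 FPKM in E14.2, 2.86 in E13.15 and 0.238 in E13.17, against 4.69, 14.7 and 5.52 FPKM. Adapted WT E14.4 was below primary null E13.15, whereas the other adapted lines were above every primary sample. The changes were 3.86 (SE 1.02) in WT and 2.16 (SE 0.570) in null cells on the log2(FPKM + 1) scale. Without adapted E14.4 the change in WT cells was 5.15. Orm1, which encodes an orosomucoid, was listed at 0 in all 9 primary samples and in 3 of the 6 adapted lines, and reached 0.584 FPKM at most, in adapted WT E13.8.

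Clusterin was even across primary cells and was high in some adapted lines only. Its own unit (chr14:65968483-65981551) stood at 2.2 FPKM in primary WT E14.4, 2.59 in E13.1 and 2.08 in E13.8, against 4.28, 58.9 and 44.6 FPKM in the adapted lines. In null cells it stood at 1.85 FPKM in E14.2, 3.24 in E13.15 and 3.68 in E13.17, against 2.36, 7.12 and 172 FPKM. Hence, on this unit, 3 of the 6 adapted lines were above 40 FPKM and 3 were below 8. A second Clu unit, described below, stood at 38.3 FPKM in adapted WT E14.4. For the own unit the changes were 2.89 (SE 0.880) in WT and 2.13 (SE 1.37) in null cells on the log2(FPKM + 1) scale, and the latter was 0.45 without adapted E13.17.

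Of the 8 units on the strand of the gene, 5 were higher in every adapted than in every primary WT sample, and 4 in null cells. Over all units tested, 17.3% in WT and 17.5% in null cells showed this, and since the members were named for these comparisons nothing is read from the counts. In the values of untreated null S13 and of S14 and S15, none of these units reached 5 FPKM.

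The strand of a unit could be inferred, but the library kit is not stated to mark strand, so fragments of a gene and of a unit on the opposite strand cannot be told apart. For Lcn2, Saa3, Hp and Clu the other strand carried a second unit of the same name. In adapted lines, the unit on the gene's strand was 18.9 to 23.9 times as high as the second one for Lcn2, 17.0 to 27.4 times for Saa3 with Saa1, and 1.22 to 2.14 times for Hp. These ratios varied little between lines, although the levels of Lcn2 spanned 16.1 times and those of Saa1 and Saa3 spanned 1263 times. Clu differed. Its second unit was listed at 0 in all 9 primary samples and in adapted null E13.15 and E14.2, and stood at 64.2, 83.2, 38.3 and 217 FPKM in adapted WT E13.1, E13.8, E14.4 and null E13.17. The gene's own unit was 0.112 to 0.917 times as high in those 4 lines, and adapted WT E14.4, at 4.28 FPKM on the gene's strand and 38.3 on the other, would be read as low or high for Clu depending on the unit used. Second units are common here, with units on both strands for 55.4% of 11849 symbols with a mean of at least 1 FPKM.

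**Figure D2:**
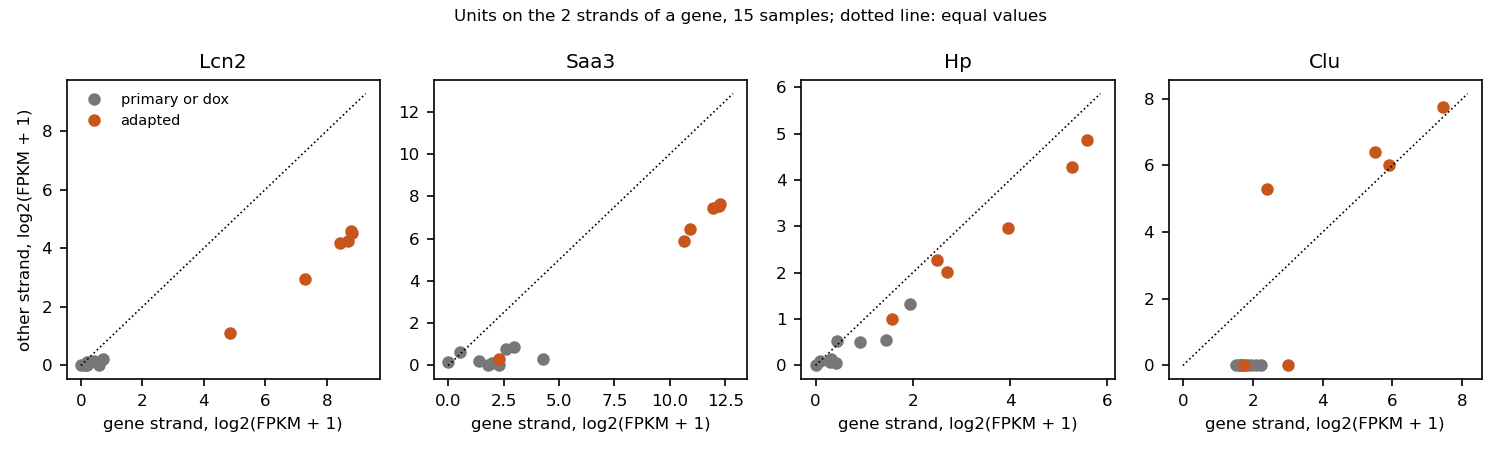
Level of the unit on the gene's strand (horizontal axis) and of the unit on the other strand (vertical axis), both as log2(FPKM + 1), for Lcn2, Saa3 (its own-strand unit is shared with Saa1), Hp and Clu. Each point is 1 of the 15 samples, and the dotted line marks equal values. Adapted lines lie below the line for Lcn2, Saa3 and Hp, whereas for Clu 2 adapted lines are at 0 on the other strand and 4 lie above the line, with 217 FPKM as the highest value on the other strand.

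The adapted lines differed in which members were high. Adapted WT E13.1 had high Lcn2, Hp and Clu with 3.84 FPKM of Saa1 and Saa3. Adapted null E14.2 had 3982 FPKM of Saa1 and Saa3, and the lowest Lcn2 and Clu of the 6 lines at 28.2 and 2.36 FPKM. Its Lcn2 was still above the 0.178 FPKM of its primary population, and its Hp stood at 4.69 against 0.362 FPKM. Adapted WT E14.4 had the highest Lcn2 of the 6 and the lowest Hp and C3. Adapted null E13.17 had the highest Saa1 and Saa3, C3 and Clu, with Hp at 5.52 FPKM. Among adapted lines the standard deviation on the log2(FPKM + 1) scale was 3.87 for Saa1 and Saa3, 2.26 for Clu, 1.61 for Hp, 1.55 for Lcn2, 1.11 for C3 and 1.0 for the unit of C2 and Cfb. The median over 19976 units with a mean of at least 1 FPKM in adapted lines was 0.403. By that measure Saa1 and Saa3 exceeded 99.9% of units, Clu 99.1%, Hp 96.9%, Lcn2 96.5%, C3 90.8% and the unit of C2 and Cfb 88.4%. In the primary populations of the same 6 embryos, only 3 of these units reached a mean of 1 FPKM besides Saa1 and Saa3, whose standard deviation was 1.3 and above that of 98.7% of units. Adapted lines in which a member is off in some lines and on in others have a large spread by construction, and the measure is a description.

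**Figure D3:**
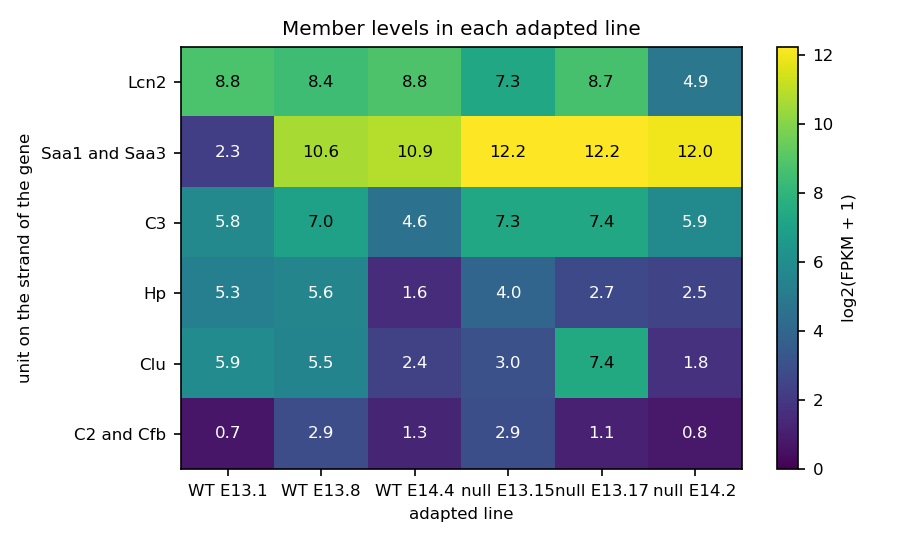
Level of 6 member units in each of the 6 adapted lines as log2(FPKM + 1), with the value in each cell and colour from 0 (dark) to the highest value (bright). WT E13.1 is bright for Lcn2, Hp and Clu and dark for Saa1 and Saa3, whereas null E14.2 is bright for Saa1 and Saa3 and dim for Lcn2, so no single order of lines holds for all members.

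Whether the members depended on CIZ1 was asked in 3 comparisons, which did not choose the members but share samples with those that did. In primary cells, 4 of the 12 units had a mean of at least 1 FPKM and were tested with limma with Benjamini-Hochberg adjustment over 19566 units. None passed an adjusted p of 0.05, where 0.00511% of all units did, and 1 of the 4 had an unadjusted p under 0.05, against 6.26% of all units. That unit was Saa1 and Saa3, whose primary null levels of 5.06 to 18.3 FPKM did not overlap the WT levels of 0.467 to 2.99 FPKM, as for 11.9% of all units in this comparison. The further untreated null sample S13, at 2.46 FPKM, lay within the WT range. For Saa1 and Saa3 the difference of null minus WT in primary cells was 1.97 on the log2(FPKM + 1) scale (95% interval 0.75 to 3.18, limma adjusted p = 0.680), and 1.59 with S13 included. C3 (0.38, interval -0.39 to 1.16), Clu (0.23, -0.29 to 0.74) and the unit of C2 and Cfb (0.14, -0.53 to 0.81) overlapped between genotypes. Lcn2 and Hp were below the filter in primary cells and were not tested.

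In adapted cells, 10 of the 12 units were tested over 19976 units, and none passed an adjusted p of 0.05 with limma, where 0.00501% of all units did. None had an unadjusted p under 0.05, against 4.02% of all units. The Saa1 and Saa3 unit and the Saa3 unit on the other strand were higher in all 3 null lines than in all 3 WT lines, which held for 8.28% of all units in either direction. The levels of these 2 units followed each other across adapted lines, as given above, so they are read as 1 result. For Saa1 and Saa3 the difference of null minus WT was 4.21 on the log2(FPKM + 1) scale, with a 95% interval from -1.09 to 9.52 and a limma adjusted p of 0.998. It was 1.38 without adapted WT E13.1, the line at 3.84 FPKM, and 5.56 and 5.69 without adapted WT E13.8 and E14.4. Lcn2 was lower in null lines by a difference of -1.73 (interval -3.87 to 0.42), with overlapping groups, since adapted null E13.17 stood above adapted WT E13.8. That difference was -0.68 without adapted null E14.2 and -2.60 without adapted null E13.17. C3 differed by 1.06 (-0.61 to 2.73), Hp by -1.08 (-3.68 to 1.52) and Clu by -0.53 (-4.38 to 3.32), all with overlapping groups. With 1 line left out C3 ranged from 0.46 (without WT E14.4) to 1.68 (without WT E13.8), and Hp from -2.37 (without WT E14.4) to -0.36 (without WT E13.8). Without adapted null E13.17 the second Clu unit passed with a difference of -5.91 and a limma adjusted p of 0.0322, because the remaining null lines were at 0. The line left out held the highest value of that unit, at 217 FPKM. In that fit the unit was above the filter through the WT lines only, so nothing is read from its call. These intervals are wide and leave room for large differences in either direction.

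Doxycycline was compared over 2 untreated and 2 treated inducible samples, of which untreated E13.17 also belongs to the primary null group above. The comparison is unpaired, although these samples share embryos, since the embryo of each treated sample is not in the labels. Of the 12 units, 4 were tested over 19768 units, and none passed an adjusted p of 0.05 with limma (0.0101% of all units did) or an unadjusted p of 0.05 (1.76% of all units). Saa1 and Saa3 stood at 6.91 and 2.46 FPKM untreated and at 0 and 3.83 FPKM treated, a difference of -1.25 on the log2(FPKM + 1) scale (95% interval -3.27 to 0.76). It was -0.12 without S14 and -2.39 without S15, and -0.65 and -1.85 without untreated E13.17 and S13. For C3 the difference was 0.05 (-1.28 to 1.37), for Clu -0.19 (-1.05 to 0.67) and for the unit of C2 and Cfb 0.08 (-1.13 to 1.30). Lcn2 was 0.653 and 0.505 FPKM untreated and 0 and 0.140 FPKM treated, too low to be tested.

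**Figure D4:**
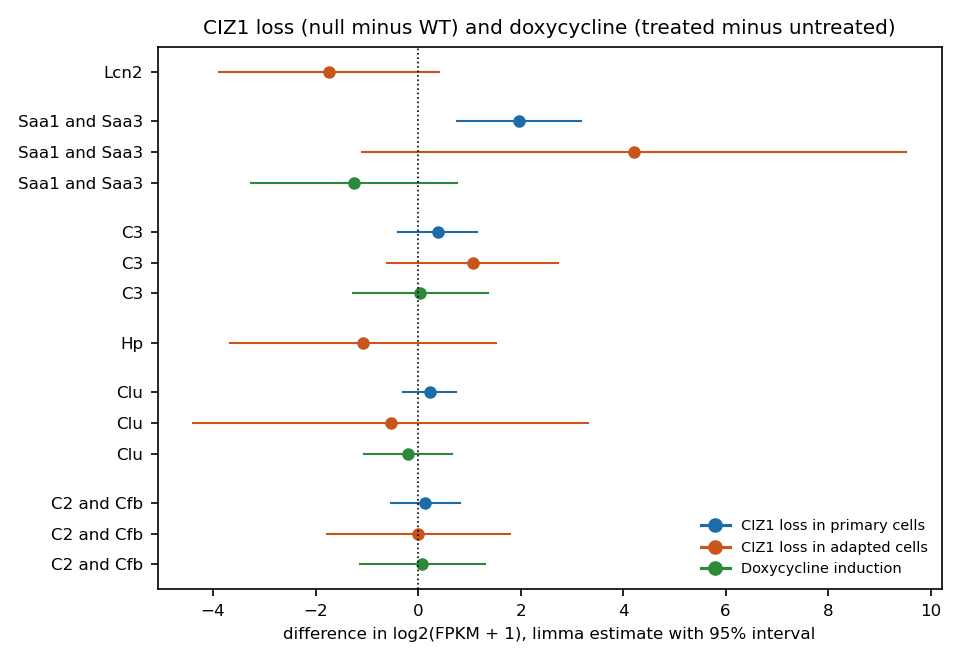
Difference in log2(FPKM + 1) with its 95% interval from limma for each member unit on the gene's strand that was tested, for loss of CIZ1 in primary cells (null minus WT, 3 against 3), loss of CIZ1 in adapted cells (3 against 3) and doxycycline (treated minus untreated, 2 against 2). All intervals but that of Saa1 and Saa3 in primary cells (0.75 to 3.18) reach across 0, and none of the differences passed the adjusted threshold.

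To place the members among their pathways, 139 further genes were grouped as complement components, complement regulators and receptors, other acute-phase proteins, inducing cytokines and receptors, transcription factors and feedback genes, and receptors and partners of the products. On adaptation of WT cells 76 of them were tested, of which 6 were higher and 5 lower at an adjusted p of 0.05 with limma, where 2.87% and 6.68% of all 19919 units were higher and lower. The median change of the 76 was 0.208 on the log2(FPKM + 1) scale, against -0.0489 over all units. On adaptation of null cells 81 were tested, of which 8 were higher and none lower, where 1.4% and 3.47% of all 20044 units were. Their median change was 0.260, against -0.0377 over all units. These calls rest on few samples, and the lists were chosen with earlier results of these data known. The calls also use the same comparisons that named the members, so they are not independent of that choice. Some called genes had a mean under 1 FPKM in 1 of the groups compared. Among them were Cp, Lbp and Tlr2 in primary cells and the C1q genes in adapted lines. Such genes were above the filter through the other group only, so a call could go in that direction only. Without any 1 of the primary WT populations no listed gene passed in WT cells and 62 to 70 of all units did. In null cells 5 passed without primary E13.15, and 2 without either of the other primary null populations. Blocking on the embryo, 6 passed in WT and 1 in null cells. Of the genes called in WT cells without the block, only Fth1, Lbp, Tlr2, C1ra and C1s1 passed with it. The 6 thus include a gene that was not called without the block.

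Among complement components, 2 of 9 tested were higher in WT cells and 3 of 11 in null cells. C1ra and C1s1, the proteases of the first complement complex, rose in both genotypes. C1s1 stood at 1.48 to 4.24 FPKM in primary WT and 39.0 to 162 FPKM in adapted WT samples, and at 4.17 to 6.78 FPKM and 124 to 162 FPKM in the null samples of the same kind. It rose by 4.20 (SE 0.562, limma adjusted p = 0.0150) in WT and by 4.55 (SE 0.225, limma adjusted p = 0.00133) in null cells on the log2(FPKM + 1) scale. In null cells it was the one called gene that passed in all 12 alternative settings, with the embryo as a block at a limma adjusted p of 0.0173. C1ra rose by 3.25 (SE 0.387, limma adjusted p = 0.0125) and 3.78 (SE 0.246, limma adjusted p = 0.00508), the latter with 0.0708 under the block. C1ra and C1s1 have close copies beside them in the mouse genome, and fragments could be split between copies. Colec12, a scavenger receptor of the collectin family, rose in null cells by 1.60 (SE 0.229, limma adjusted p = 0.0262, and 0.0721 under the block).

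The genes of the recognition part of the same complex, C1qa, C1qb and C1qc, went the other way. They fell in WT cells by 1.91, 1.81 and 1.74 on the log2(FPKM + 1) scale, with limma adjusted p of 0.0306, 0.0300 and 0.0401, and with 0.0612, 0.0622 and 0.0733 under the embryo block. C1qa stood at 1.87, 5.39 and 1.87 FPKM in primary WT cells and was listed at 0 in all 6 adapted lines. In null cells the changes were -2.69, -2.49 and -2.50 with limma adjusted p of 0.120, 0.0838 and 0.0542, and did not pass. C1q is made mainly by macrophages. The macrophage markers summed to 18.4 to 35.3 FPKM in primary WT and 2.15 to 8.77 FPKM in adapted WT samples. In null cells they summed to 8.98 to 101 FPKM in untreated primary and 3.80 to 15.1 FPKM in adapted samples, so these ranges overlap. The part of the macrophage markers in the result was not tested.

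Among complement regulators and receptors, none of 5 tested passed in WT cells and 1 of 7 was higher in null cells. It was Cr1l, which limits C3 deposition on rodent cells and rose in null cells by 1.15 (SE 0.209, limma adjusted p = 0.0384, and 0.107 under the block). Serping1, the inhibitor of C1r and C1s, did not pass in either genotype, with a change of -1.39 in WT and 1.57 in null cells. It stood at 2.01, 0.161 and 1.63 FPKM in adapted WT lines and at 50.5, 3.51 and 31.7 FPKM in adapted null lines E13.15, E13.17 and E14.2, so that a high C1s1 was found both with and without Serping1. C4b, a complement component, stood at 11.9 FPKM in adapted null E13.17 and at most at 3.08 FPKM in the other samples.

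Among the other acute-phase proteins, 1 of 10 tested was higher in WT and 1 of 11 in null cells. Lbp, which presents lipopolysaccharide to its receptors, rose in WT cells by 1.95 (SE 0.423, limma adjusted p = 0.0408) and stood at 52.5 FPKM in adapted null E13.17 against 1.40 and 1.44 FPKM in the other adapted null lines. Cp, the copper ferroxidase ceruloplasmin, rose in null cells by 5.58 (SE 0.745, limma adjusted p = 0.0235, and 0.0708 under the embryo block). In WT cells its change was 2.80 (SE 1.17, limma adjusted p = 0.166), with 0.640 FPKM in adapted E13.1, 45.4 in E13.8 and 17.8 in E14.4. It was thus low in the same adapted line in which Saa1 and Saa3 were low. Serpina3n did not pass, and Orm2 was at most 0.0650 FPKM in all samples.

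Of the inducing cytokines and receptors, 2 of 19 tested were higher and 2 lower in WT cells, and 1 of 19 higher in null cells. Tlr2, a receptor for bacterial lipoproteins that signals to NF-kappaB, rose by 3.10 (SE 0.309, limma adjusted p = 0.00907) in WT and by 2.90 (SE 0.310, limma adjusted p = 0.0209, and 0.0708 under the block) in null cells. It stood at 0.326 to 1.09 FPKM in the 6 primary populations and 7.82 to 21.2 FPKM in the adapted lines. Osmr, the oncostatin M receptor subunit, rose in WT cells by 1.61, whereas the cytokine gene Il11 fell by 2.60 and Il17ra fell by 1.06, with limma adjusted p of 0.0295, 0.0388 and 0.0269, and 0.0522, 0.0505 and 0.0623 under the block. Il6 did not pass in either genotype, and stood at 2.48, 15.5 and 73.3 FPKM in adapted WT E13.1, E13.8 and E14.4 and at 20.9, 4.75 and 0.479 FPKM in adapted null E13.15, E13.17 and E14.2. Saa1 and Saa3 stood at 3982 FPKM in adapted null E14.2, with the lowest Il6 of these lines, and at 1910 FPKM in adapted WT E14.4, with the highest. A link between Il6 and this unit was not tested.

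Among transcription factors and feedback genes, none of 24 tested passed in WT cells and 2 of 24 were higher in null cells. They were Nfkbia, the inhibitor that NF-kappaB itself induces (1.78, SE 0.225, limma adjusted p = 0.0215, and 0.0826 under the block), and Nfkbiz, a nuclear cofactor that Lcn2 induction is known to need (1.49, SE 0.273, limma adjusted p = 0.0387, and 0.102 under the block). In WT cells their changes were 1.54 and 1.26, with limma adjusted p of 0.0964 and 0.0788, and the difference between genotypes was not tested. Cebpd changed by 1.47 and 1.37 and Nfkb1 by 0.74 and 0.68 in WT and null cells, without passing. Cebpb, Stat3 and Socs3 had changes between -0.13 and 0.36. Among receptors and partners of the products, 1 of 9 tested was higher in WT and none in null cells. This was Fth1, the ferritin heavy chain that stores iron, which rose by 1.49 (SE 0.257, limma adjusted p = 0.0248). The lipocalin 2 receptor gene Slc22a17 and its binding partner Mmp9 did not pass. No listed gene passed for loss of CIZ1 in primary cells (70 tested), in adapted cells (75) or for doxycycline (74). Of all units 0.00511%, 0.00501% and 0.0101% passed in these comparisons, so nothing is read from the absence of calls. The study, with Cuffdiff, reported a set of CIZ1-dependent units in primary cells.

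**Figure D5:**
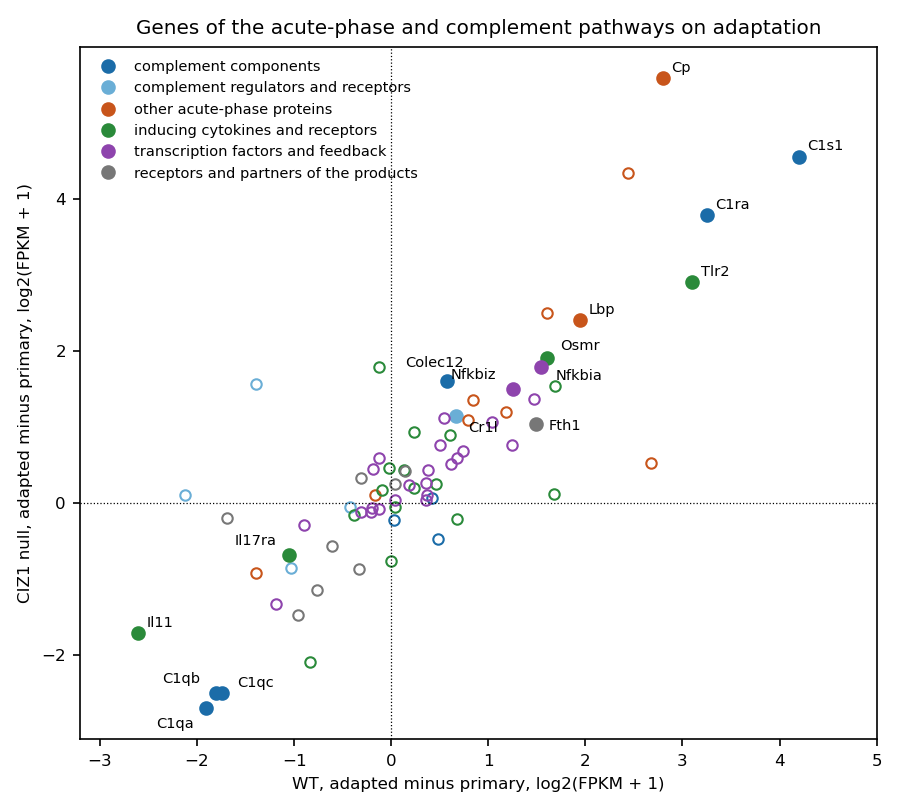
Change on adaptation of the 76 listed genes tested in both genotypes, as adapted minus primary in log2(FPKM + 1), in WT (horizontal axis) and CIZ1 null cells (vertical axis). Each point is a gene coloured by its list, and filled, named points passed an adjusted p of 0.05 with limma in at least 1 genotype. C1s1, C1ra and Tlr2 lie high in both genotypes, and the 3 C1q genes and Il11 lie low.

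By likeness over the 15 samples, measured as Pearson's r of log2(FPKM + 1) among 19512 units with a gene symbol and a mean of at least 1 FPKM, the units nearest to Lcn2 were the 2 units of C1ra, 1 on each strand (0.947 and 0.939), Iws1 (0.940), Gm37206 (0.940) and Sephs1 (0.938). Those nearest to Saa1 and Saa3 were Cp (0.939), Slc12a2 (0.939), Ell2 (0.928), Vdac3 (0.927) and Nfkb1 (0.925). All 15 samples share a split into primary and adapted cells, which sets much of these values, and they are given as a description. Within the adapted lines, each of the units nearest to Saa1 and Saa3 was lowest in WT E13.1, where Saa1 and Saa3 were lowest. Slc12a2 stood there at 3.16 FPKM against 13.4 to 24.0 FPKM in the other 5 lines. The units were chosen by this likeness, so nothing is read from the shared low line.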

How the data were processed

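Poly(A)-selected, paired-end RNA-seq was carried out in 15 samples. The authors trimmed reads with Cutadapt 1.8.3, aligned them to GRCm38 with HISAT2 2.0.5, assembled transcripts with Cufflinks and made normalised FPKM per unit with Cuffnorm, per the submitters' processing notes and the study's methods. The deposited table of Cuffdiff 2.2.1 comparisons holds the authors' own fold changes and was not used. Reads of each sample are not in the files, and the study's methods give only 1 approximate number for all samples, so the depth of each is unknown. The most common ratio of low values (under 0.3 FPKM) to primary WT E14.4, held by 12.1 to 17.5% of units, gave relative depths of 0.476 to 1.61.

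Groups came from the labels. Embryos of 12 samples were read from the study's per-line lists, whose values were 100% identical, and primary and adapted samples of an embryo are paired by origin. The label of untreated E13.17 reads S13 in 1 field. After subtraction of group means, same-embryo samples correlated across units at 0.211, 0.146 and -0.0054 (WT E14.4, E13.1, E13.8) and -0.019, 0.106 and 0.0881 (null E14.2, E13.15, E13.17).

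Groups were compared on log2(FPKM + 1) with limma 3.58.1 in R 4.3.3 (lmFit, eBayes with trend), over units with a mean of at least 1 FPKM, only the samples compared and no covariates, with Benjamini-Hochberg adjustment over all units and a threshold of 0.05. The pseudocount understates changes of low units. The comparison was tested on simulated data first. The members, gene lists and tests were chosen with earlier results of these data known. Named were all members, key genes of each list, up to 3 called genes a list with the largest change in each direction, and the 5 units most like Lcn2 and Saa3. Strand was inferred from the order of units and matched 98.2% of 33184 annotated genes, and 1 own-strand unit per listed gene was used, a choice made after the files were seen. The 6 listed genes that share a unit were left out, and 1 key gene is not reported here. Alternatives were a pseudocount of 0.1, no filter, quantile normalization, other sets of primary null samples, the embryo as a block, and each sample left out. Start positions were shifted to count from 1. Python 3.11.15 was used for the rest.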

Additional observations from a re-analysis of the deposited data

How the results depend on the processing

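The calls depend on few samples, on values that hold no read counts, and on units that join genes or split them by strand, and groups of 2 or 3 leave wide intervals. No member unit passed for loss of CIZ1 or doxycycline under any alternative, except 1 (the second Clu unit) without adapted null E13.17 (range 0 to 1 with a sample left out). The number of listed genes called in WT cells was 11, against 4 without the filter, 6 with the embryo as a replicate block and 0 to 18 with a sample left out (0 without any primary WT sample, 5 without adapted E13.8 and 18 without adapted E14.4). In null cells it was 8, against 2 with only the 2 primary samples without transgene, 1 with the replicate block and 2 to 15 with a sample left out (2 without primary E14.2 or E13.17, 5 without primary E13.15, 15 without adapted E13.15 and 4 without adapted E14.2). With every unit that carries a listed symbol, chosen after seeing the data, the counts were 17 and 13. The called genes kept their direction in every setting that tested them, and the cause of the lost calls was not tested.

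Signs turned only for uncalled units. For C2 and Cfb the difference was -0.12 in primary cells with the 2 null samples without transgene, and -0.041 in adapted cells with quantile normalization. With a sample left out it ranged from -0.12 to 0.34 in primary cells, -0.64 to 0.63 in adapted cells and -0.42 to 0.59 for doxycycline. Clu then ranged from -2.22 to 0.63 in adapted cells and -0.44 to 0.057 for doxycycline, and C3 from -0.17 to 0.72 for doxycycline. C3 after doxycycline was -0.20 with the pseudocount of 0.1 and -0.021 with quantile normalization. On adaptation with quantile normalization Stat3 was 0.12 in both genotypes. In null cells Il6 was -0.076 with the pseudocount of 0.1 and -0.45 without the transgenic sample, and Mmp9 was 0.25 with all 4 untreated samples. With a sample left out, Slc22a17 ranged from -0.42 to 0.35 in WT and -0.0067 to 0.56 in null cells. In null cells Il6 ranged from -0.85 to 1.10, Socs3 from -0.47 to 0.65, Cebpb from -0.045 to 0.26 and Mmp9 from -1.03 to 1.08.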
